A study of Mus musculus with 24 samples.

Results

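Cytochrome P450 genes were examined in the mouse mammary gland, in 2 inbred strains and after low-dose ionizing radiation (LDIR). Every non-control probe whose gene name had the form of a P450 gene (Cyp, a family number, subfamily letters and a gene number) was taken. This gave 113 probes for 88 genes, out of 55681 probes and 34797 gene names on the array. Of these 88 genes, 68 had 1 probe and 20 had several, and each gene was followed through its brightest probe over the 24 arrays. Membership rested on the name alone and not on a measured value.

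The study asked how mammary tissue of BALB/c mice, a strain susceptible to radiation-induced mammary cancer, and of the more resistant strain SPRET/EiJ responds to a single low dose. Female mice from the Jackson Laboratory received 10 cGy of X-rays to the whole body at an age of 8 to 9 weeks, or were sham irradiated. Mammary tissue was taken after 2, 4 or 8 weeks in BALB/c and after 4 weeks in SPRET/EiJ. Each of the 8 groups held 3 samples, lettered A, B and C, and each sample was hybridized to a 1-colour Agilent array that measures messenger and long noncoding RNA. No transgene or deletion is named for any group, and all BALB/c mice, sham ones included, carry the strain's DNA-PKcs alleles of low activity. The labels name no mouse, so p-values measure the spread between these samples.

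P450 enzymes are haem proteins that insert 1 oxygen atom of molecular oxygen into their substrates. Enzymes of the endoplasmic reticulum take electrons from the reductase Por or from cytochrome b5, and mitochondrial ones take them from ferredoxin. Families with lower numbers clear drugs and other foreign compounds, chiefly in the liver, whereas others make or break down steroid hormones, bile acids, retinoic acid, vitamin D and fatty acid mediators. In the mammary gland they are known as local sources and sinks of oestrogens and as enzymes that activate carcinogens.

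Levels below are log2 intensities relative to the array's 75th percentile, so a level of 0 is that percentile. A level describes 1 probe, and levels of different probes were not compared. A probe was called above background where the scanner software flagged its signal as well above background. Differences between strains were called at p under 0.001 and over 1.5-fold, and differences with LDIR at p under 0.05 and over 1.5-fold, the study's own thresholds, with limma. Adjusted p-values were adjusted by Benjamini-Hochberg over every probe tested in limma. In bulk tissue, fewer cells of a type and less RNA per cell cannot be told apart.

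Between 58.19% and 73.36% of spots were above background on each array, and SPRET/EiJ LDIR replicate C was the lowest. On BALB/c 4-week LDIR replicate A the negative controls had a mean background-subtracted signal of 277.5, beside -13.03 to -1.441 on the other 23 arrays. Fits without this array are given below for the 4-week Cyp3a genes and for the interaction, and in part for the LDIR strain comparison. The 24 arrays lay on 3 slides of 8, according to the file headers. Slide 1 held the 2-week BALB/c arrays and sham replicates A and B of 4 weeks. Slide 2 held the other 4-week BALB/c arrays, the 8-week sham arrays and 8-week LDIR replicate A. Slide 3 held 8-week LDIR replicates B and C with all 6 SPRET/EiJ arrays. No 4-week BALB/c array shared a slide with a SPRET/EiJ array, so strain and slide cannot be told apart at 4 weeks, and the 8-week BALB/c arrays of slide 3 are given beside the SPRET/EiJ values instead. The 5 luminal and 3 basal epithelial markers and the 5 white adipocyte markers were above background on all 24 arrays. Alb and Apoa2, 2 of the 3 liver markers, were also above background on all 24 arrays, whereas Ttr was so on 2.

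Of the 88 P450 genes, 45 (51.1%) were above background on all 24 arrays, beside 52.7% of all probes. A further 34 were above background on some arrays and 9 on none. These 9 were Cyp1a2, Cyp2a12, Cyp2c39, Cyp2c54, Cyp2j5, Cyp3a44, Cyp4x1, Cyp7a1 and Cyp8b1. Of the 6 genes listed for bile acids and cholesterol, Cyp7a1 and Cyp8b1 were thus in the background, and the other 4 were above it on all 24 arrays. In all, 67 genes were above background on all 3 arrays of at least 1 group, 54 on all 18 BALB/c arrays and 51 on all 6 SPRET/EiJ arrays. For 5 genes the 18 BALB/c arrays were all above background while no SPRET/EiJ array was (0.551% of all probes did the same). They were Cyp3a25, Cyp3a57, Cyp3a59, Cyp4f14 and Cyp4f15, and the brightest probe of no gene showed the opposite pattern.

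Cyp3a25, Cyp3a57 and Cyp3a59, which encode enzymes of the CYP3A subfamily for drugs and steroids, gave the largest strain differences of the 88 genes, and their promoters are shown because the genes moved together over the arrays. Each line gives the 250 bases before the start of the gene, 5′ to 3′, from RefSeq for GRCm38.p6. Capitals mark AGGTCA, the half-site that many nuclear receptors bind, or its reverse complement TGACCT. Cyp3a25 lies on the minus strand at chr5:146009619-146009868, Cyp3a57 on the plus strand at chr5:145345019-145345268 and Cyp3a59 on the plus strand at chr5:146079008-146079257.
Cyp3a25: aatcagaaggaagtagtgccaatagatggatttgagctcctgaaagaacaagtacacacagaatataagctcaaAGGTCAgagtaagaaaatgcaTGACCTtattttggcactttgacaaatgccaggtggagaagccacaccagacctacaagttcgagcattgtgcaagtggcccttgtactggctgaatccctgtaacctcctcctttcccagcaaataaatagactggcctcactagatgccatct
Cyp3a57: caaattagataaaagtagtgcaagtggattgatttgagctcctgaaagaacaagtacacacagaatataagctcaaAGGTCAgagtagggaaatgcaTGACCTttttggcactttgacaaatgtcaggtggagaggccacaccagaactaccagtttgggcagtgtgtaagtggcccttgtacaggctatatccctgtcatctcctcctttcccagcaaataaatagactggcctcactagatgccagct
Cyp3a59: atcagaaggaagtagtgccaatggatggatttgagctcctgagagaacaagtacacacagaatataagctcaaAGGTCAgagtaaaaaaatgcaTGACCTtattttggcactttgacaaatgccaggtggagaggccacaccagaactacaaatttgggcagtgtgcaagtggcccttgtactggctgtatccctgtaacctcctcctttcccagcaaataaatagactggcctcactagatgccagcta

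In each of the 3 promoters the motif stood once in each orientation. The copies began 176 and 155 bases before the start in Cyp3a25, 174 and 153 in Cyp3a57, and 177 and 156 in Cyp3a59. The windows of Cyp3a25 and Cyp3a59 were identical at 238 of 251 aligned columns (94.8%), those of Cyp3a57 and Cyp3a59 at 90.1% and those of Cyp3a25 and Cyp3a57 at 88.9%. Against the window of Cyp3a11, identity was 52.7% to 54.3%, and against that of Cyp3a13 48.6% to 49.1%. Cyp3a16 and Cyp3a44 formed the other close pair, at 92.9%. The motif stood once in the windows of Cyp3a11 and Cyp3a44 and was not found in those of Cyp3a13 and Cyp3a16. Over the array's P450 genes, 67 had a RefSeq promoter, and 18 of their 77 windows (23.4%) held the motif on either strand, beside 14% of 32851 mouse promoters. These are sequences of the reference mouse, not of BALB/c or SPRET/EiJ, and a match is a description of letters.

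The array probes themselves are 60 bases long. Of the 113 P450 probes, 2 held the bases that encode the haem-binding signature, the most conserved part of a P450, up to its cysteine. Residues after the cysteine were not searched. They are shown because they hold bases of the part of the gene that is shared by the whole superfamily. Capitals mark the 24 bases that encode the signature up to its cysteine, found by a search of the forward frames.
Cyp3a59 probe: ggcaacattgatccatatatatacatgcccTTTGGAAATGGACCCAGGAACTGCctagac
Cyp2j13 probe: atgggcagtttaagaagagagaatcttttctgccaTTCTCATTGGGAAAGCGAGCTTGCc
The Cyp3a59 probe lies at chr5:146920638-146920697 of mm9, the build in the file headers, and starts at base 1349 of its transcript. The Cyp2j13 probe lies between 95712305 and 95723288 on chromosome 4 of mm9, across a splice junction, and starts at base 1360. Whether bases of SPRET/EiJ, a strain of another mouse species, differ from the probes was not tested.

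In sham mice at 4 weeks, 16 of 88 P450 genes (18.2%) differed between the strains, beside 8.89% of all probes. Of the 16, 7 were higher in BALB/c (5.36% of all probes were) and 9 were lower (3.53%). In none of the 16 did the 3 BALB/c arrays overlap the 3 SPRET/EiJ arrays, and the same held for 35 of all 88 genes and 38% of all probes. The median difference over the 88 genes was -0.09 on the log2 scale, beside -0.08 over all probes. With adjusted p under 0.05, limma called 22 of the 88, beside 10489 of all 55681 probes. At the strain thresholds, a fit of all 24 arrays with the slide as a block called 5, and the methods' t-test called 8. No share of all probes is set beside those counts.

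**Figure D1:**
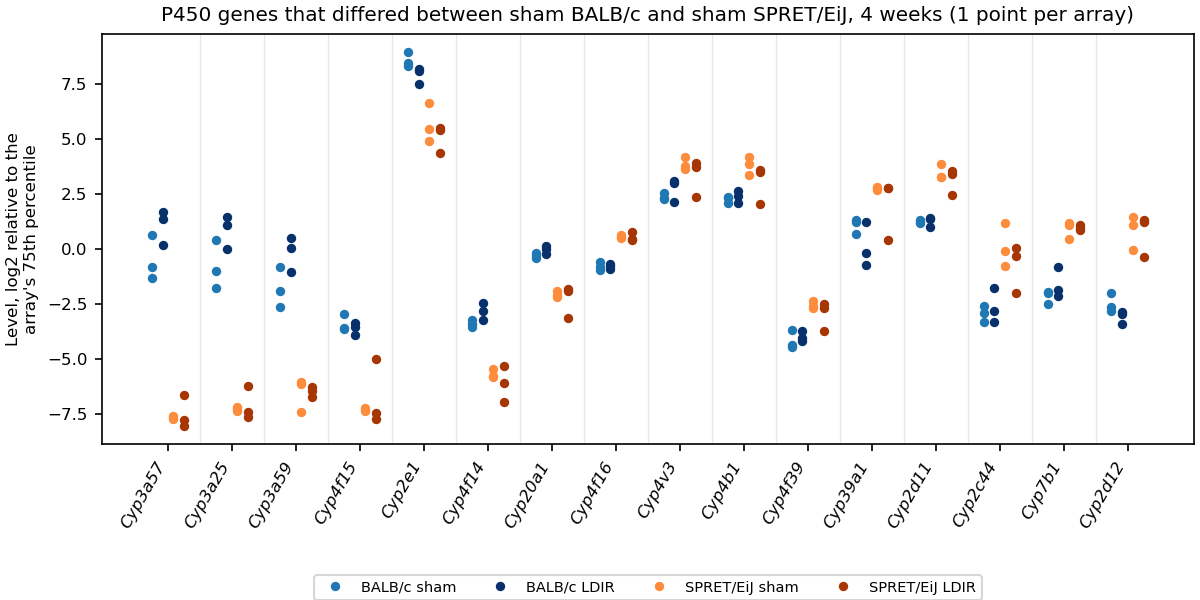
Level (log2 intensity relative to the array's 75th percentile) of the 16 P450 genes that differed between sham BALB/c and sham SPRET/EiJ mice at 4 weeks, 1 point per array, with the LDIR arrays of both strains beside them. Cyp3a57, Cyp3a25 and Cyp3a59 show the largest mean differences and Cyp4f16 the smallest.

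The CYP3 family held the widest differences. Of its 7 members, 3 were higher in BALB/c and none lower, and the family's median difference was 0.68. Cyp3a57 stood at -1.31, 0.63 and -0.81 in sham BALB/c replicates A, B and C and at -7.67, -7.58 and -7.72 in sham SPRET/EiJ. Cyp3a25 stood at -1.79, 0.43 and -1.01 in BALB/c and at -7.29, -7.20 and -7.35 in SPRET/EiJ. Cyp3a59 stood at -2.61, -0.83 and -1.89 in BALB/c and at -6.04, -7.42 and -6.11 in SPRET/EiJ. All 9 SPRET/EiJ values of the trio were in the background, so that the folds are lower bounds, set by the dimmest signal above background on each array. In BALB/c the signal of Cyp3a57 was at least 56.3-fold that in SPRET/EiJ (limma with Benjamini-Hochberg, adjusted p = 0.000358), Cyp3a25 at least 46.0-fold (adjusted p = 0.000756) and Cyp3a59 at least 19.5-fold (adjusted p = 0.00271). A dimmer probe of Cyp3a59 passed in the same direction and was also above background on the 18 BALB/c arrays alone. Cyp3a11, the main CYP3A gene of mouse liver, differed by 0.58 and Cyp3a13, a CYP3A gene of the gut, by 0.18, and neither passed.

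**Figure D2:**
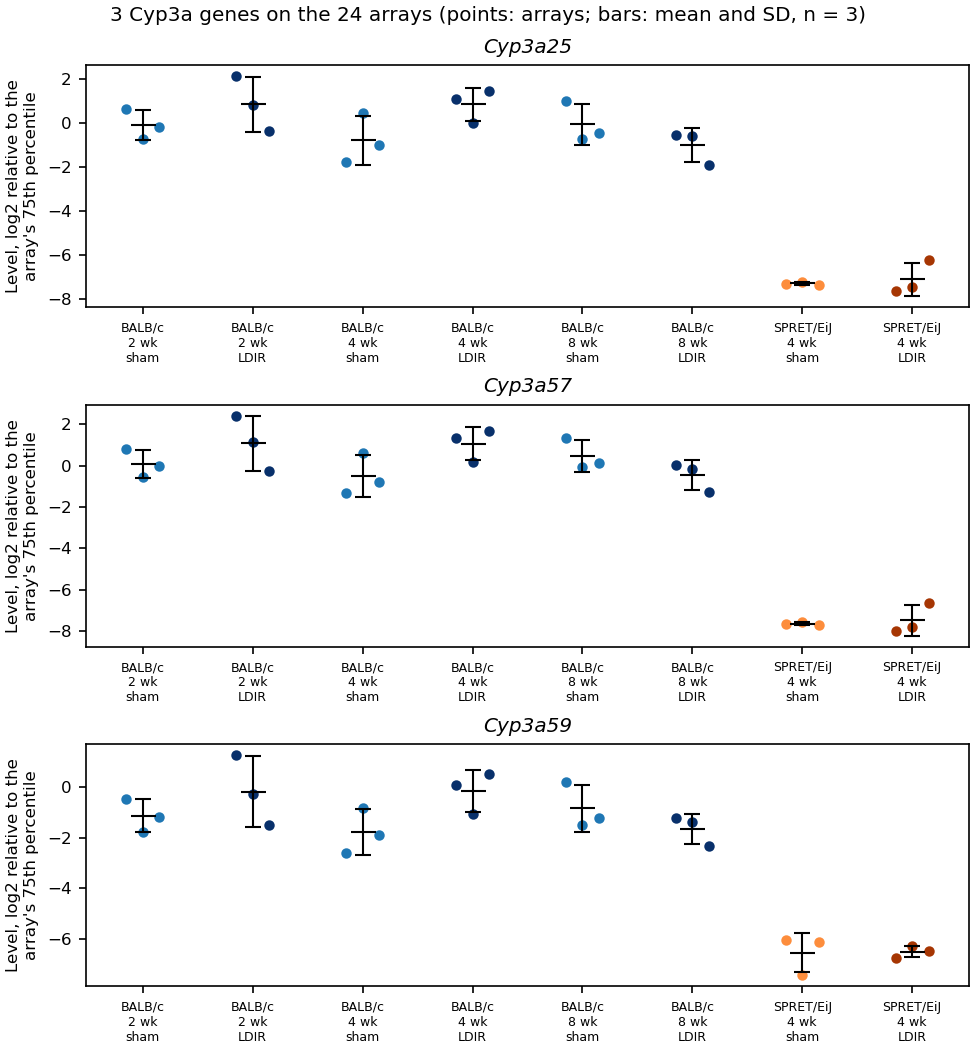
Level (log2 intensity relative to the array's 75th percentile) of Cyp3a25, Cyp3a57 and Cyp3a59 in each of the 8 groups, with 1 point per array and bars for the mean and SD (n = 3). The 18 BALB/c arrays lie between -2.61 and 2.40 and the 6 SPRET/EiJ arrays between -8.03 and -6.04.

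The trio was high in every BALB/c group and varied widely within groups. Over the 18 BALB/c arrays Cyp3a25 spanned 4.02 on the log2 scale, Cyp3a57 3.71 and Cyp3a59 3.86. At 2 weeks after LDIR, for example, Cyp3a57 stood at 2.40, 1.13 and -0.27 in replicates A, B and C, and at 8 weeks after LDIR at 0.06, -0.14 and -1.28. In 6 of 6 BALB/c groups the 3 genes put the replicates in the same order from low to high. That order is given as a description, since the 3 probes share each library.

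In the CYP4 family, whose members hydroxylate fatty acids and eicosanoids at the omega end, 2 of 15 genes were higher in BALB/c and 4 lower, with a median difference of -0.28. Cyp4f15 stood at -3.60, -3.63 and -2.93 in sham BALB/c and at -7.33, -7.24 and -7.38 in sham SPRET/EiJ, at least 7.60-fold higher in BALB/c (limma, adjusted p = 0.000234). Cyp4f14 stood at -3.22, -3.53 and -3.39 against -5.47, -5.78 and -5.83, at least 4.97-fold higher (adjusted p = 0.000641). Both are CYP4F genes, whose enzymes inactivate leukotrienes, and both were in the background in SPRET/EiJ. In the other direction, Cyp4b1, which oxidizes fatty acids and furans, stood at 2.12, 2.36 and 2.33 in BALB/c and at 3.86, 4.2 and 3.35 in SPRET/EiJ (difference -1.54, SE 0.25). Cyp4v3 was lower by a difference of -1.48 (SE 0.20), from 2.29 to 2.54 in BALB/c and from 3.63 to 4.17 in SPRET/EiJ. Cyp4f39 differed by -1.62 (SE 0.26) and Cyp4f16 by -1.33 (SE 0.17).

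The CYP2 family, the largest with 45 members, had 1 gene higher and 3 lower in BALB/c, with a median difference of -0.13. Cyp2e1, which oxidizes ethanol and other small molecules, stood at 8.47, 8.94 and 8.32 in sham BALB/c and at 5.45, 4.91 and 6.65 in sham SPRET/EiJ. The difference was 2.90 (SE 0.46; limma, adjusted p = 0.0078), and a dimmer probe of the same gene gave 1.85 with adjusted p = 0.0518. Cyp2d12 stood at -2.63, -1.98 and -2.82 against 1.09, -0.03 and 1.45, a difference of -3.31 (SE 0.43). Cyp2d11, of the same subfamily, stood at 1.17, 1.33 and 1.25 against 3.27, 3.28 and 3.85, a difference of -2.22 (SE 0.21). Both are CYP2D genes, of the subfamily known for drug oxidation. Cyp2c44, named Cyp2c23 in RefSeq and known for making epoxides of arachidonic acid, stood at -2.93, -3.32 and -2.57 against -0.11, 1.18 and -0.79 (difference -3.03, SE 0.51). Cyp2d22 did not pass the thresholds, with a difference of -2.11 and adjusted p = 0.019.

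Among genes for sterols, 2 of 6 were lower in BALB/c and none higher. Cyp7b1, an oxysterol hydroxylase, stood at -2.50, -1.98 and -1.94 in sham BALB/c and at 1.11, 0.46 and 1.17 in sham SPRET/EiJ, a difference of -3.05 (SE 0.27; limma, adjusted p = 0.0010). Cyp39a1, another oxysterol hydroxylase, stood at 0.68, 1.24 and 1.33 against 2.68, 2.84 and 2.79 (difference -1.69, SE 0.22). Both enzymes act on oxysterols in bile acid formation. Cyp27a1 and Cyp46a1, sterol hydroxylases of the liver and the brain, did not pass, with differences of 0.21 and -0.50.

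Cyp20a1, a P450 with no established substrate, stood at -0.19, -0.39 and -0.28 in sham BALB/c and at -1.90, -2.07 and -2.16 in sham SPRET/EiJ, a difference of 1.76 (SE 0.16; limma, adjusted p = 0.0011). Its dimmer probe gave the opposite sign, -1.59 with adjusted p = 0.0187, which did not pass the strain thresholds. Of the 16 genes, 13 had a single probe, so that no other probe could be compared.

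None of the 6 genes for steroid hormone synthesis, the 3 for retinoic acid breakdown, the 3 for vitamin D or the 3 targets of the aryl hydrocarbon receptor passed in sham mice. Cyp17a1, a hydroxylase of androgen synthesis, had a lowest, median and highest level of 3.17, 4.25 and 4.89 over the BALB/c arrays and 3.73, 4.18 and 4.72 over the SPRET/EiJ arrays. Cyp19a1, the aromatase that makes oestrogens, had -6.19, -4.72 and -2.44 in BALB/c and -5.21, -4.40 and -3.46 in SPRET/EiJ, and was above background on 20 arrays. Cyp11a1, which cleaves the side chain of cholesterol, had -6.18, -3.26 and -2.89 against -4.76, -3.52 and -2.75. The levels of these 3 steroid genes overlapped between the strains.

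For vitamin D, Cyp27b1, which makes the active hormone, had a lowest, median and highest level of -4.75, -3.98 and -3.32 in BALB/c and -3.84, -3.78 and -2.95 in SPRET/EiJ. Cyp24a1, which inactivates it, had -5.56, -4.60 and -3.81 against -4.69, -4.08 and -1.66 and was above background on 22 arrays. Cyp26b1, which breaks down retinoic acid, had -0.42, 0.79 and 2.08 against 0.30, 0.83 and 1.62, whereas Cyp26a1 was above background on 1 array. Each of these pairs of ranges overlapped. Cyp2u1, a fatty acid hydroxylase, had 6.45, 6.89 and 7.56 against 6.70, 6.97 and 7.20. Cyp2f2, the naphthalene-oxidizing enzyme of the airway, had 4.2, 5.56 and 6.55 against 5.01, 6.18 and 7.14. Cyp2b10, a target of the receptor Nr1i3, had -6.66, -3.08 and -1.47 against -3.85, -2.91 and -1.78.

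The LDIR arrays of the same strains at 4 weeks share no array with the sham comparison, although the genes were already known from it. There 10 of 88 genes (11.4%) differed between the strains, beside 5.67% of all probes. Of the 10, 6 were higher in BALB/c (3.78% of all probes) and 4 lower (1.89%). Cyp2d12, Cyp2e1, Cyp3a25, Cyp3a57, Cyp3a59, Cyp4f14, Cyp4f16, Cyp7b1 and Cyp20a1, 9 in all, passed in both comparisons. All 16 genes of the sham comparison had the same sign in the LDIR comparison, and 12 of the 16 did not overlap there, beside 35 of all 88 (39.8%) and 33.5% of all probes. BALB/c exceeded SPRET/EiJ at least 193-fold in Cyp3a57, 164-fold in Cyp3a25 and 70.1-fold in Cyp3a59, with adjusted p between 0.000447 and 0.000590 in limma. Cyp2e1 stood at 7.51, 8.20 and 8.11 in LDIR BALB/c and at 4.37, 5.42 and 5.49 in LDIR SPRET/EiJ. Cyp7b1 stood at -0.80, -2.15 and -1.88 against 1.11, 0.89 and 0.97. Without BALB/c LDIR replicate B or without replicate C, 4 genes passed. Without SPRET/EiJ LDIR replicate A 14 passed, without its replicate B 6, and without SPRET/EiJ LDIR replicate C, the dimmest array, 8. The share of all probes is not set beside these counts. The count without BALB/c LDIR replicate A, the array with bright negative controls, is not given. Cyp2d12, Cyp3a25, Cyp3a57 and Cyp3a59 passed whichever 1 array was left out, that array included.

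**Figure D3:**
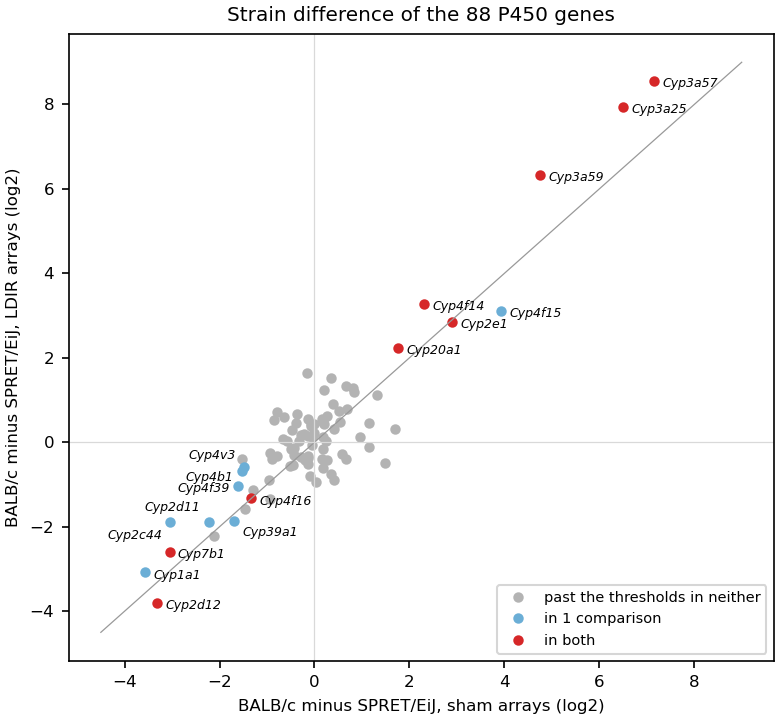
Difference between BALB/c and SPRET/EiJ (log2) of each of the 88 P450 genes on the sham arrays (x axis) and on the LDIR arrays (y axis), with the line of equal values. The 9 genes past the thresholds in both comparisons are in red, and the fitted difference of Cyp3a57 lies farthest out, at 7.16 and 8.56.

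Cyp1a1, the aryl hydrocarbon receptor target that oxidizes aromatic carcinogens, passed in the LDIR comparison but not in the sham comparison. It stood at -4.51, -3.84 and -3.32 in LDIR BALB/c and at -1.77, -0.55 and -0.11 in LDIR SPRET/EiJ, a difference of -3.08. In sham mice it stood at -4.87, -3.09 and -4.74 against 0.98, -1.64 and -1.30, a difference of -3.58 (SE 0.81; limma, adjusted p = 0.028) that missed the unadjusted threshold. The groups did not overlap in either comparison, and 38% of all probes did not in sham mice and 33.5% in LDIR mice. Cyp1b1, another target of that receptor, differed by -0.21 in sham mice and did not pass.

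On slide 3, where 8-week BALB/c LDIR replicates B and C lay beside the SPRET/EiJ arrays, 12 of the 16 genes had the sign of the sham comparison with no overlap, beside 40 of all 88 (45.5%) and 32.1% of all probes. The exceptions were Cyp4b1, Cyp4f39, Cyp4v3 and Cyp39a1, whose ranges overlapped. All 10 genes of the LDIR comparison had the same sign with no overlap on that slide. These BALB/c arrays are of another week, so week and strain cannot be told apart there, and the SPRET/EiJ arrays are the ones that chose the genes. Cyp3a57 stood at -0.14 and -1.28 on the BALB/c arrays of slide 3, whereas the 6 SPRET/EiJ arrays spanned -8.03 to -6.63.

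Markers of other cell types also differed between the strains. The summed level of the 5 luminal markers, on the linear scale, was 135 to 281 times the 75th percentile in sham BALB/c and 23.1 to 128 in sham SPRET/EiJ, with none of the 5 past the thresholds. Of the 2 smooth muscle markers, Acta2 differed by 3.68 and passed, whereas Myh11 differed by -0.31 and did not. The adipocyte gene Plin1 differed by 3.84 and passed, and the other 4 adipocyte markers did not, among them Lep at -2.05 and Cidec at -0.23. The 5 adipocyte markers had a median difference of 0.05, and their summed level overlapped, at 1607 to 1944 in sham BALB/c and 1503 to 1890 in sham SPRET/EiJ. Of the 3 liver markers, Alb differed by 1.18 and passed, whereas Apoa2 differed by -1.22 and Ttr by -0.23 and did not. The B cell marker Cd79a (-1.31) and Akr1c18 (-2.56), listed for steroidogenic cells, were lower in sham BALB/c and passed. The part of these cell types in the P450 differences was not tested.

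Of the pathway's other genes, none of 9 measured electron donors passed between strains, in sham or in LDIR mice. Among 20 receptors and regulators, 1 was higher and 2 lower in sham BALB/c. The higher one was Nr5a2, a nuclear receptor that regulates sterol and steroid P450 genes. Its probe was above background throughout the 18 BALB/c arrays but nowhere in SPRET/EiJ. Sham BALB/c exceeded sham SPRET/EiJ at least 13.8-fold (limma, adjusted p = 0.00356), and LDIR BALB/c exceeded LDIR SPRET/EiJ at least 12.3-fold. The lower ones were Nqo1, a target of the aryl hydrocarbon receptor (-1.73), and the bile acid receptor Nr1h4 (-2.03). None of the 3 P450 genes with other names, Cyp51, Tbxas1 and Ptgis, passed between strains.

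Few P450 genes differed between LDIR and sham mice, and no member passed an adjusted p of 0.05 in limma in any LDIR comparison. The same held for all probes of the array, of which 0 passed in any of these comparisons. Over all probes the lowest adjusted p in limma was 0.526 at 2 weeks and 0.318 at 4 weeks in BALB/c. At 2 weeks 5 of 88 BALB/c genes (5.68%) passed the unadjusted thresholds, beside 3.05% of all probes, with 8 at p under 0.05 and a lowest adjusted p of 0.826. At 4 weeks 7 (7.95%) passed, beside 4.83% of all probes, all of them higher after LDIR (3.39% of all probes) and none lower (1.44%), with 8 at p under 0.05 and a lowest adjusted p of 0.686. At 8 weeks 1 gene (1.14%) passed, beside 1.92% of all probes. In SPRET/EiJ mice 0 of 88 passed, beside 2.21% of all probes, and 0 of 88 were at p under 0.05 by limma. For the counts at p under 0.05 alone, the share of all probes is not given. With the 3 BALB/c times pooled, 2 genes (2.27%) passed, beside 1.16% of all probes. The counts turned on single arrays: 8 genes passed at 2 weeks without LDIR replicate B, 14 at 4 weeks without sham replicate C, and 12 at 8 weeks without LDIR replicate A. In SPRET/EiJ up to 3 passed when 1 array was left out. No share of all probes is set beside these counts, so whether the whole array moved with them cannot be told here. Sham replicate C was the only sham array on the slide of the 4-week LDIR arrays, so treatment and slide largely coincide at 4 weeks. A fit with the slide as a block sets the LDIR arrays against that 1 sham array, and its calls are not given. The 4-week split was 5 higher and 2 lower after quantile normalization, and 3 higher and 1 lower after normexp background correction.

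**Figure D4:**
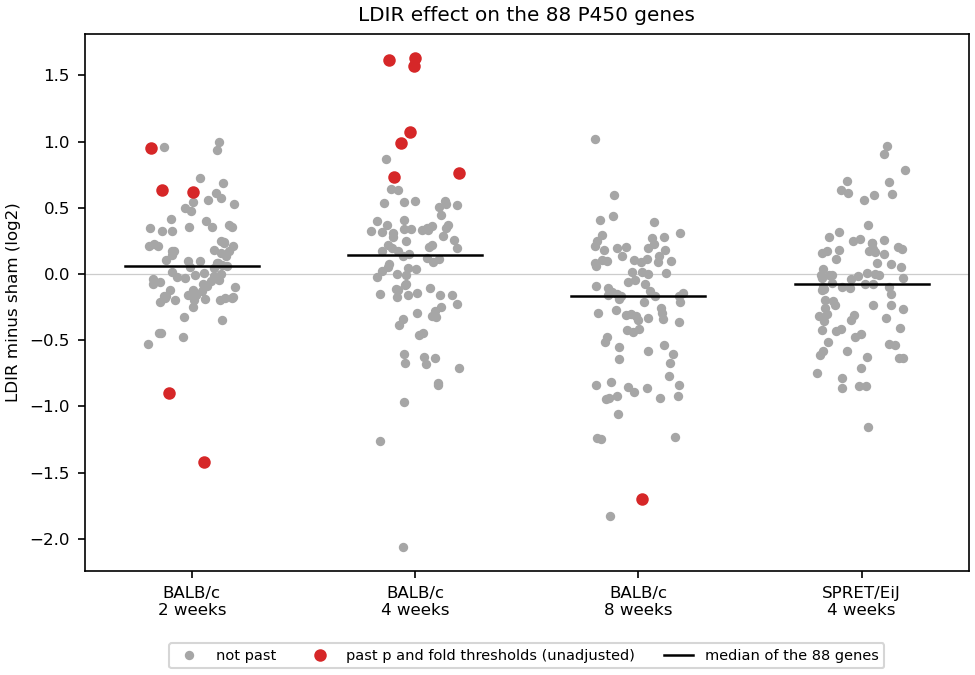
Difference between LDIR and sham (log2) of the 88 P450 genes, 1 point per gene, with a column for each BALB/c week (2, 4, 8) and 1 for SPRET/EiJ (4 weeks) and genes past the unadjusted thresholds in red. The red points number 5, 7, 1 and 0, and at 4 weeks all 7 lie above 0.

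At 4 weeks the 3 Cyp3a genes were higher after LDIR in BALB/c. Cyp3a57 stood at 1.35, 0.20 and 1.69 in LDIR replicates A, B and C, against the sham values above, a difference of 1.57 (SE 0.60; unadjusted p = 0.036 and adjusted p = 0.775 in limma). Cyp3a25 stood at 1.07, -0.01 and 1.46, a difference of 1.63 (SE 0.64; unadjusted p = 0.040), and Cyp3a59 at 0.06, -1.06 and 0.53, a difference of 1.62 (SE 0.57; unadjusted p = 0.027). For each gene sham replicate B lay above LDIR replicate B, so the groups overlapped. With the slide as a block, sham replicate C was the only sham array compared. The differences were then 1.85, 1.89 and 1.73 for Cyp3a25, Cyp3a57 and Cyp3a59. These values reuse arrays of the main fit, so they are not separate evidence. The differences of other P450 genes in that fit are not given. In the main fit none of the 3 Cyp3a genes passed without LDIR replicate A, the array with bright negative controls. The same held without LDIR replicate C, sham replicate A or sham replicate C.

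The CYP2 genes Cyp2c65 and Cyp2ab1 were also higher at 4 weeks, and their groups did not overlap (12.6% of all probes did not). Cyp2c65 was above background on 13 of the 24 arrays, among them 3 LDIR and 1 sham array of this comparison, so it is named through its higher group and its sham values lie near the background. Cyp2c65, a CYP2C gene known from the gut, stood at -5.43, -5.63 and -5.72 in sham and -4.86, -5.07 and -4.56 in LDIR mice, a difference of 0.77 (SE 0.19). Cyp2ab1 stood at -5.03, -4.80 and -4.53 in sham and -3.67, -4.39 and -4.10 in LDIR mice, a difference of 0.74 (SE 0.24). Their differences were 0.04 and 0.12 after another background correction (normexp), and did not pass. Cyp2c50 and Cyp2g1 also passed, but were not well above background on all 3 LDIR arrays. In the same mice the basal markers Krt5 and Krt14 differed by -0.73 and -0.93 the macrophage markers Cd68 and Emr1 by 0.81 and 0.72 and the brown adipocyte gene Cidea by -1.88, all past the unadjusted thresholds. The part of these cells in the P450 differences was not tested.

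At 2 weeks Cyp2d12 and Cyp2d22, of the CYP2D subfamily, were higher after LDIR. Cyp2d22 stood at -2.71, -2.98 and -2.56 in sham and -2.01, -2.21 and -2.16 in LDIR mice, a difference of 0.62 (SE 0.17; unadjusted p = 0.0089 and adjusted p = 0.869 in limma). Cyp2d12 stood at -2.55, -2.89 and -3.0 in sham and -2.06, -2.25 and -2.24 in LDIR mice, a difference of 0.63 (SE 0.17; unadjusted p = 0.0097 and adjusted p = 0.869). Neither pair of groups overlapped, and the same held for 11 of all 88 genes and 11.7% of all probes. The other 3 genes past the thresholds at 2 weeks, Cyp2g1, Cyp4f40 and Cyp26a1, had a higher group in which not every array was well above background. The same held for Cyp2g1 at 8 weeks and for Cyp4f40 and Cyp26a1 over the pooled times.

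At 8 weeks all probes together had a median difference of -0.14 between LDIR and sham, and the 88 genes had a median of -0.17, close to that shift. At 2 weeks the medians were 0.06 for the genes and -0.02 for all probes, at 4 weeks 0.14 and 0.02, and in SPRET/EiJ -0.08 and 0.03. No electron donor passed at any time. Nr1i2, the receptor that induces CYP3A genes in the liver, differed by 1.16 at 2 weeks and passed the unadjusted thresholds, but was above background on only 6 of the 24 arrays. Nr5a2 also passed at 2 weeks, with 0.61. At 4 weeks Arnt, the partner of the aryl hydrocarbon receptor (-0.82), Nr0b2, above background on 7 arrays (1.00), and Tbxas1, the thromboxane synthase (0.66), passed the unadjusted thresholds.

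The difference between the strains in their LDIR effect at 4 weeks was tested with an interaction term. There 6 of 88 genes (6.82%) passed the unadjusted thresholds, beside 3.59% of all probes, with 5 effects greater in BALB/c and 1 smaller. None passed after adjustment, and no probe of the whole array did. Without BALB/c sham replicate C 12 passed, and without BALB/c LDIR replicate A 3, with no share of all probes set beside these counts. Of the 6, 3 were above background on all 3 arrays of at least 1 group, and among these Cyp2c65 had a difference of 1.38 (SE 0.34) and adjusted p = 0.955 in limma. In SPRET/EiJ it stood at -5.02, -4.45 and -4.74 in sham and -5.48, -5.0 and -5.56 in LDIR mice, and in BALB/c it was higher after LDIR. The difference in SPRET/EiJ itself, -0.61, did not pass.

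Levels of P450 genes also differed with the week in BALB/c, in a comparison chosen after the values were seen. The 6 arrays of 8 weeks were set against the 12 of 2 and 4 weeks with treatment as a covariate, and genes were called at adjusted p under 0.05 and over 1.5-fold. Of 88 genes, 14 (15.9%) differed, beside 17.7% of all probes, with 5 higher and 9 lower at 8 weeks. The share is near that of all probes. With the slide as a block, 10 of 88 passed in limma over the 18 BALB/c arrays and 0 over all 24 arrays, where 15 had an unadjusted p under 0.05. These slide-block counts have no share of all probes beside them, so they may have moved with the whole array. The mice of 8 weeks were also older, and no 8-week array shared a slide with a 2-week array.

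**Figure D5:**
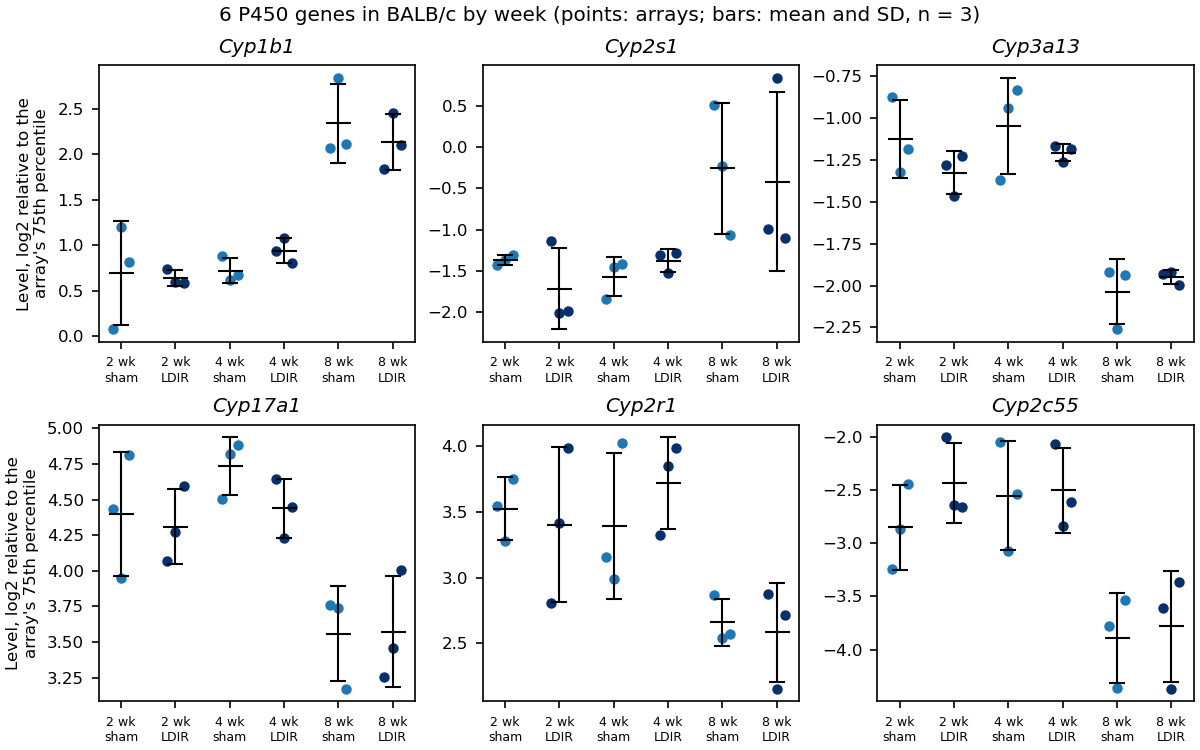
Level (log2 intensity relative to the array's 75th percentile) of 6 P450 genes in BALB/c at 2, 4 and 8 weeks, sham and LDIR, with 1 point per array and bars for the mean and SD (n = 3). Cyp1b1 lies between 1.84 and 2.84 at 8 weeks and between 0.07 and 1.2 before.

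Cyp1b1, which oxidizes oestradiol and aromatic carcinogens, had the lowest adjusted p of them. It stood at 0.07, 1.2 and 0.82 in sham and 0.74, 0.60 and 0.58 in LDIR mice at 2 weeks. At 4 weeks it stood at 0.88, 0.62 and 0.67 in sham and 0.94, 1.07 and 0.80 in LDIR mice. At 8 weeks it stood at 2.07, 2.84 and 2.12 in sham and 1.84, 2.45 and 2.10 in LDIR mice. All 6 arrays of 8 weeks were above all 12 others, with a difference of 1.49 (SE 0.16) and adjusted p = 5.33e-06 in limma. Between these sets of arrays, 4 of 88 genes and 6.24% of all probes did not overlap. The same receptor's target Cyp1a1 went the other way, by -1.59 (SE 0.40; adjusted p = 0.00655).

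Cyp2s1 (1.17), Cyp7b1 (0.79), Cyp2d22 (0.63) and Cyp2d12 (0.59) were also higher at 8 weeks. The Cyp2s1 values were uneven there, at 0.51, -0.22 and -1.06 in sham and -0.99, 0.84 and -1.10 in LDIR mice. Its highest value at 2 or 4 weeks was -1.14. Lower at 8 weeks were the steroid gene Cyp17a1 (-0.91), the vitamin D hydroxylase Cyp2r1 (-0.89) and Cyp3a13 (-0.82), with Cyp2c55 at -1.25. Cyp2b13, Cyp2c68, Cyp2d34 and Cyp2j13 were lower too, with differences between -0.86 and -0.69. On slide 2, which held 4 arrays of each of 4 and 8 weeks, all 14 genes had the same sign and 8 did not overlap, but none passed adjustment. These 8 arrays are among the 18 that chose the genes, and 18 of all 88 genes (20.5%) and 18.7% of all probes did not overlap there. Cyp1b1 lay between 1.84 and 2.84 at 8 weeks there and between 0.67 and 1.07 at 4 weeks, Cyp17a1 between 3.17 and 3.76 against 4.23 and 4.89, and Cyp3a13 between -2.26 and -1.92 against -1.26 and -0.83.

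Other tissue markers moved with the 8-week arrays. Of 5 white adipocyte markers, 4 were lower, and their summed level was 583 to 1311 times the 75th percentile at 8 weeks and 1159 to 2141 at 2 and 4 weeks. The basal markers Krt5 and Krt14 were higher by 1.66 and 1.53, whereas Trp63, the third basal marker, differed by -0.35 and did not pass. Acta2 of smooth muscle was higher by 1.5 and Acta1 of skeletal muscle by 3.09. The brown adipocyte gene Cidea was lower (-1.91), and the immune cell markers Cd79a (0.95), Cd68 (0.68) and Csf1r (0.68) were higher. The summed level of the 4 lymphocyte markers varied widely at 8 weeks, from 5.65 to 47.6 in sham and from 6.33 to 59.1 in LDIR mice. Of the 9 electron donors, 5 were lower and none higher, among them Por (-0.67), the electron donor of the microsomal P450 enzymes, and Cyb5 (-0.74). Of the 20 receptors and regulators, the vitamin D receptor Vdr (1.37) and Rara (0.62) were higher. The adipocyte regulator Pparg (-1.06), Nr1i3 (-1.45), Nr1h3 (-0.72) and Ppara (-0.62) were lower. The part of these cells in the P450 differences was not tested.

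Probes of 1 gene did not always move together. Cyp2r1 differed by 0.27 between strains on its brightest probe and by -4.65 on the other (limma, adjusted p = 0.0005), and the probes start at bases 1478 and 1563 of the transcript. The brightest probe of Cyp3a13 was above background on all 24 arrays and differed by 0.18, whereas the other was above background on none of the 18 BALB/c arrays and on all 6 SPRET/EiJ arrays. Cyp2j6 differed by -0.79 on its brightest probe, whereas 17 BALB/c arrays and none of the SPRET/EiJ arrays were above background for the other. These 3 genes were chosen after their values were seen. Within close subfamilies, some probes resembled each other. The probes used for Cyp2c67 and Cyp2c68 shared 55 of 59 aligned bases and those used for Cyp4a10 and Cyp4a31 44 of 47, so their levels may not be separate.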

How the data were processed

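The authors deposited 1 scanner file per array, made with Agilent Feature Extraction 10.10.1.1 per the file headers, which hold the processed signal intensity of each spot after background subtraction. The authors also deposited a table of log2 values, normalized to the 75th percentile, whose values matched the ones computed here within 0.01 for 99.797% of values. From the scanner files, control spots and outlier spots were left out, spots of 1 probe were averaged, and log2 of the processed signal minus the array's 75th percentile was taken for 55681 probes. The number of arrays, 3 per group, limits the precision, and the smallest two-sided p of an exact permutation test of 3 against 3 is 0.1, so tests rest on the model across all probes. No column of any other sample was used.

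The main test was limma 3.58.1 in R 4.3.3 (lmFit and eBayes over all probes, only the groups compared), with Benjamini-Hochberg adjustment over all probes; scripts were tested on simulated data. A covariate for week was used in the pooled fit and for treatment in the 8-week fit. Figures were drawn with matplotlib 3.10.9 and promoters aligned with Biopython 1.88. Named with values were all members past the thresholds whose higher group had all 3 arrays above background, P450 genes of known roles fixed by name whatever their values, and genes whose probes disagreed past the thresholds, of which there were none. The members, lists and tests were chosen with earlier results of these data known. Gene names are those of the array; 86 of 88 matched RefSeq by accession, and 1 symbol had changed. Promoters are from RefSeq for GRCm38.p6 and matched 67 members with 77 windows. Probe coordinates are those of mm9 in the files.

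Replicate letters were checked as pairs by the correlation of deviations from the group means. At 2 weeks the correlations over 34648 probes above background on all 6 arrays were 0.141, 0.442 and 0.102 for A, B and C, so the letters count as pairs there by the rule used, on these values alone. Over all probes they were 0.013, 0.140 and -0.031, and the pairing is weak. No other comparison had all 3 over 0.1. Alternatives were quantile normalization, normexp background correction with an offset of 50, the log2 values of the authors, detected probes only, the methods' t-test, the replicate block, slide as a block, all 24 arrays in 1 fit, the mean of a gene's probes, and leaving out each array.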

Additional observations from a re-analysis of the deposited data

Results flagged for a closer look

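For 6 P450 genes the LDIR effect at 4 weeks differed between BALB/c and SPRET/EiJ by the interaction term at unadjusted p under 0.05, and none had adjusted p under 0.05 (limma, adjusted p = 0.955 for each). No other probe on the array had adjusted p under 0.05 there. The effect in BALB/c minus that in SPRET/EiJ was 1.38 on the log2 scale for Cyp2c65, 0.85 for Cyp2b19 and 0.68 for Cyp2c38. It was 1.79 for Cyp2j11, 1.25 for Cyp2c50 and -1.30 for Cyp4x1, genes that were not well above background on all 3 arrays of any group. Cyp2b19, a P450 of skin, stood at -3.85, -4.54 and -4.08 in sham BALB/c and at -3.52, -3.67 and -3.66 in LDIR BALB/c. In SPRET/EiJ it stood at -3.81, -3.78 and -3.70 in sham and at -3.89, -3.88 and -4.44 in LDIR mice. Neither effect of Cyp2b19 passed both thresholds in its own strain.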

How the results depend on the processing

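In every comparison the named genes kept their sign under every alternative except 1: the interaction of Cyp2c38 became -0.065 with the mean of its probes. Counts of P450 genes past the thresholds are given below where they moved by over 1.5 times. Shares of all probes under these settings are not set beside them, so a count may move with the whole array. The sham strain count (16) was 8 with the methods' t-test and 5 with the slide block over all 24 arrays, and 11 to 13 with 1 array left out. Of the 16, Cyp2d11, Cyp3a57 and Cyp7b1 passed under all alternatives run. The LDIR strain count (10) was 4 with the methods' t-test and 4 to 14 with 1 array left out. Cyp3a25, Cyp3a57 and Cyp3a59 passed under all of them.

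At 2 weeks the count (5, 3 higher and 2 lower) was 3 after normexp (3 higher), 2 with detected probes, 2 with the slide block over 24 arrays, 2 with all 24 arrays in 1 fit and 4 to 8 with 1 array left out. At 4 weeks (7) it was 4 after normexp, 3 with the methods' t-test and 5 to 14 with 1 array left out. At 8 weeks (1) it was 0 after normexp, quantile normalization or with detected probes. It was 6 with all 24 arrays in 1 fit, 2 with the mean of a gene's probes and 0 to 12 with 1 array left out. In BALB/c the slide block rested on 1 sham array at 4 weeks and 1 LDIR array at 8 weeks, so those counts are not given. Quantile normalization took the median of all probes at 8 weeks from -0.14 to 0.01. In SPRET/EiJ (0) it was 4 after quantile normalization, 1 with detected probes, 2 with the slide block, 1 with all 24 arrays and 0 to 3 with 1 array left out. The pooled count (2) was 0 after normexp or with detected probes and 2 to 3 with 1 array left out. The interaction (6) was 3 after normexp or with detected probes, and 3 to 12 with 1 array left out. The 8-week count (14), with alternatives chosen after seeing the data, was 9 after normexp, 9 with sham arrays only, 0 with the slide block over 24 arrays, 0 on slide 2 alone and 12 to 16 with 1 array left out. Normexp took that comparison's median of all probes from -0.04 to -0.22. The cause was not tested.

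With the replicate block, the sham strain count was 8, the LDIR strain count 9, the 2-week count 4, the 4-week count 7 (4 higher and 3 lower), the 8-week LDIR count 2, the pooled count 2, the interaction 6 and the 8-week count against earlier weeks 15. SPRET/EiJ stayed at 0. These counts too have no share of all probes beside them and may have moved with the whole array. Dim probes limit the LDIR comparisons, since 34 of the 88 genes were above background on only some arrays.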
